A study of Homo sapiens with 66 samples.

Results

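Interferon-stimulated genes encode the antiviral effector proteins that cells make after they sense interferon, and 9 of them, RSAD2, IFIT1, IFIT2, IFIT3, ISG15, MX1, OAS1, IFI6 and IFI44L, are described here in 2 human multiple myeloma (MM) cell lines. They were taken by gene identifier from the 20167 genes of the deposited count table. The set was selected on measured values, because RSAD2 counts in AMO1 cells after 24 h of carfilzomib (CFZ) lay above those with DMSO, so the CFZ values at 24 h are given as a description and carry no test. The study exposed the cells to compounds directed at prolyl-tRNA synthetase (ProRS), the enzyme that charges proline onto its tRNA, and to the proteasome inhibitor CFZ, and asked how their transcripts responded by RNAseq. AMO1 cells received DMSO (the vehicle), CFZ, NCP26, NCP22, halofuginone (HFG) or halofuginol for 6 h or 24 h, which gave 12 groups. L363-CFZr cells, a subline of the L363 line that resists CFZ, received the same agents except CFZ at the same times, which gave 10 groups. NCP26, NCP22, HFG and halofuginol were used at 1 µM in both lines, and the CFZ dose, which the study states but the sample labels do not, is not printed here. Each group had 3 libraries, so the 66 libraries were 36 of AMO1 and 30 of L363-CFZr. Each line is a single culture model, and parental L363 cells were not analysed here, so a difference between the lines cannot be told apart from a difference between the AMO1 and L363 lineages.

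Type I interferons bind the receptor chains IFNAR1 and IFNAR2, whose kinases TYK2 and JAK1 activate transcription factors. A complex that holds STAT2 and IRF9 then enters the nucleus and binds the interferon-stimulated response element in the promoters of target genes. Many targets can also be driven by IRF family members without any interferon, and USP18 and the SOCS proteins damp the pathway. Among the members, RSAD2 (viperin) makes a nucleotide analogue that can stop viral polymerases, the IFIT proteins bind viral RNA, ISG15 is a ubiquitin-like modifier, MX1 is a dynamin-like GTPase that blocks viral ribonucleoproteins, OAS1 senses double-stranded RNA and activates RNase L, and IFI6 is a membrane protein with anti-apoptotic activity. IFI44L is an interferon-induced protein related to IFI44.

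Library totals ran from 1666325 to 6596543 counts (median 3165566). All levels below are CPM, the counts of a gene scaled to a common library size, after TMM normalization over the 66 libraries, given per library in replicate order or as mean ± SD (n = 3). All tests are edgeR quasi-likelihood tests fitted over all genes that passed a filter on low counts, with p-values adjusted by the Benjamini-Hochberg method over those genes, and a gene was called at an adjusted p under 0.05. The labels do not say whether the 3 libraries of a group came from separate cultures. The study's methods give triplicates for each AMO1 condition and state in general that triplicates were biological unless specified otherwise. The p-values measure the spread between the 3 libraries of a group, which may be technical. In bulk RNA, fewer cells with a transcript and less transcript per cell cannot be told apart. The L363-CFZr DMSO library of replicate 2 at 24 h correlated least with its own group (mean r = 0.939, against 0.963 and 0.964 for the other two), and the AMO1 CFZ library of replicate 2 at 24 h came next (0.941). Numbers at the end of the column names run from 1 to 22, in shuffled order, and recur 3 times over the 66 libraries. The 3 sets were inferred from these numbers, the numbers in the titles and the line, and the labels do not name them. The AMO1 DMSO libraries of both times share 1 set, while the AMO1 24 h libraries of NCP26, HFG, NCP22 and halofuginol are all in another. The study's methods describe storage before RNA extraction for AMO1 cells, where it went with time (frozen at 6 h, on ice at 24 h). The 10 plasma cell and myeloma markers, among them SDC1 and IRF4, each had a median above 5 CPM in both lines. Summed levels of 4 mature B cell markers reached at most 2.74 CPM, with PAX5 and CD22 at a median of 0. Of 6 myeloid and dendritic markers, 5 (CD14, LYZ, CSF1R, FCGR3A and CLEC4C) had a median of 0 in both lines, and ITGAX had a median of 5.35 CPM in AMO1. CD3D and CD2 had a median of 0 in both lines, while CD4 was detected in both.

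The promoter sequences of most members hold the letters of the interferon-stimulated response element. RefSeq promoter windows (assembly GRCh38.p14, from 250 bases before to 50 bases after a transcription start) were held for 8 of the 9 members, all but IFIT2. The letters GAAANNGAA, the core of the interferon-stimulated response element, were searched on both strands, and TTCNNTTTC is the same core read on the other strand. They occurred in the windows of 7 of the 8 members (87.5%), against 35 of 50 other interferon-stimulated genes with a window (70%) and 9.86% of 27305 genes. The window of OAS1 held no match. The stretches that follow are shown because they hold the cores of the members whose values are discussed most. They are written 5′ to 3′ on the strand of the gene, with the matched core in capitals and with positions counted from the transcription start.
RSAD2, chr2:6865786-6865834 (+), bases -99 to -51: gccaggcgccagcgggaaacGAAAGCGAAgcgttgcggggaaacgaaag
IFIT1, chr10:89392488-89392549 (+), bases -135 to -74: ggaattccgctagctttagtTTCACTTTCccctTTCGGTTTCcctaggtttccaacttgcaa
IFIT3, chr10:89332410-89332507 (+), bases -119 to -22: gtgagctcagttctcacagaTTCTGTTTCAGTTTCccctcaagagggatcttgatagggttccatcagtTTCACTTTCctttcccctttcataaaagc
ISG15, chr1:1013364-1013424 (+), bases -133 to -73: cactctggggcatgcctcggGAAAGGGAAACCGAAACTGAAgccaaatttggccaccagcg
MX1, chr21:41420564-41420588 (+), bases 7 to 31: gaaatGAAACCGAAACTGAAttgtc
IFI6, chr1:27672257-27672368 (-), bases -176 to -65: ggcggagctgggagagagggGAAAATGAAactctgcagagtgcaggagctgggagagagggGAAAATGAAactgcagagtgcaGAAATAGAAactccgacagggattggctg
In the stretches of IFIT3, ISG15 and MX1 neighbouring cores overlapped and share bases. The gamma-activated site TTCNNNGAA matched in 2 of the 8 members (MX1 and OAS1), against 9.38% of all genes, and in MX1 it overlapped a core of a window not shown. The heat shock unit GAANNTTC matched in 2 (IFIT3 and IFI44L), against 8.21%, and the C/EBP-ATF letters TGATGNAAT in 0, against 1.22%. These matches describe letters in a window and do not show that a factor was bound.

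The members sit on 5 chromosomes (GENCODE v44, GRCh38, matched by gene identifier). IFIT2 (chr10:89283694-89309271), IFIT3 (chr10:89327307-89377473) and IFIT1 (chr10:89392546-89406487) form a cluster on chromosome 10, all on the plus strand and all overlapped by LIPA on the other strand. RSAD2 (chr2:6865557-6898239, plus strand) overlaps CMPK2 on the other strand. ISG15 (chr1:1001138-1014540), IFI6 (chr1:27666064-27672212, minus strand) and IFI44L (chr1:78619902-78646145) lie on chromosome 1, MX1 (chr21:41420020-41470071) on chromosome 21 and OAS1 (chr12:112905856-112933219) on chromosome 12. Over all annotated transcripts of IFI6, 19.3% of 31-base words also occur in other genes, most often in LINC02574, and in IFIT2 the share was 10.1%. Counts of IFI6 and IFIT2 may therefore be less certain than those of the other members, where the share was at most 6.23%. The annotation behind the deposited counts is not given, and the effect on these counts was not tested.

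In untreated AMO1 cells at 6 h the members covered a wide range of levels. Per kilobase of transcript, IFI6 (80.2 CPM per kb), ISG15 (77.7) and MX1 (48.2) stood highest, OAS1 was at 15.5, and RSAD2 was at 0.884, below the 3 IFIT genes. IFI44L was lowest at 0.0995 CPM per kb and had 1, 2 and 2 counts. L363-CFZr cells at 6 h also had ISG15 (189 CPM per kb), IFI6 (174) and MX1 (94.2) at the top. RSAD2 had 1, 0 and 1 counts in those 3 libraries and between 0 and 8 counts in each of the 30 L363-CFZr libraries, with 11 of them at 0. The highest of these, 8 counts, was in the DMSO library at 24 h that stood apart from its group. RSAD2 was thus at or near the limit of detection at this depth in L363-CFZr cells, and IFIT2 reached at most 12 counts there. Between the DMSO groups at 6 h, 6 members were tested and 3 were higher in L363-CFZr, against 28.9% of all genes tested. They were ISG15 (log2 fold change 1.26 ± 0.10, adjusted p = 1.60e-09), IFI6 (1.10 ± 0.09, adjusted p = 3.69e-09) and MX1 (0.95 ± 0.08, adjusted p = 1.14e-09). IFIT3 was lower in L363-CFZr (-0.81 ± 0.32, adjusted p = 0.0316), beside 31.3% of all genes, and this call was lost by DESeq2 (adjusted p = 0.144) and without AMO1 DMSO replicate 3 (log2 fold change -0.46, adjusted p = 0.275), L363-CFZr DMSO replicate 1 (-0.80, adjusted p = 0.068) or replicate 2 (-0.65, adjusted p = 0.110). At 24 h, 2 of 5 members tested were higher in L363-CFZr, MX1 (1.37 ± 0.14, adjusted p = 2.86e-04) and IFI6 (1.05 ± 0.25, adjusted p = 0.0126), against 19.4% of all genes. The IFI6 call was lost without AMO1 DMSO replicate 1 (1.04, adjusted p = 0.0528) or replicate 3 (1.00, adjusted p = 0.0615), and without the L363-CFZr library that stood apart ISG15 was called too (log2 fold change 1.00 ± 0.18, adjusted p = 1.68e-05), in a fit that called 65% of all genes in either direction. The sets of library numbers differ between the lines at both times, so that line and set cannot be told apart here.

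Between 6 h and 24 h in DMSO alone, the members fell in AMO1 cells. MX1 was at 130.3, 131 and 139.6 CPM at 6 h and at 19.1, 17.95 and 22.3 CPM at 24 h, a separation with no overlap (log2 fold change -2.74 ± 0.10, adjusted p = 5.71e-15). ISG15 went from 48.9, 52.8 and 46.8 CPM to 9.17, 13.5 and 10.02 CPM, again with every 24 h library below every 6 h library (-2.16 ± 0.15, adjusted p = 9.44e-11). IFIT1 had 17, 27 and 18 counts at 6 h and only 1, 1 and 4 at 24 h. The 6 members tested were all lower at 24 h, against 23.4% of all genes tested, and 2 of them (IFIT1 and IFIT3) passed the filter through the 6 h group only. The smallest of the 6 changes was that of IFI6, from 65.2 ± 3.41 to 36.97 ± 2.05 CPM (-0.82 ± 0.10, adjusted p = 7.36e-07). RSAD2, which was not tested here, had 6, 8 and 12 counts at 6 h and 3, 0 and 0 at 24 h. All these libraries lie within 1 set of library numbers, but culture time and storage before extraction cannot be told apart. In L363-CFZr cells 4 of 6 members tested were lower at 24 h, against 5.81% of all genes. MX1 went from 251, 253 and 281 CPM to 49.6, 50.8 and 53.4 CPM (-2.35 ± 0.13, adjusted p = 8.73e-04) and ISG15 from 119, 107 and 134 to 23.96, 6.36 and 20.6 (-2.78 ± 0.36, adjusted p = 0.00848). OAS1 (-1.57 ± 0.20, adjusted p = 0.00822) and IFIT1 (-1.48 ± 0.36, adjusted p = 0.0345) were the others called, and IFIT1 passed the filter through the 6 h group only. ISG15, OAS1 and IFIT1 were lost when any 1 of the 3 DMSO libraries of 6 h was left out (adjusted p between 0.057 for ISG15 and 0.156 for IFIT1), and IFIT1 also without DMSO replicate 1 of 24 h (adjusted p = 0.0664). Without the DMSO library that stood apart, MX1 (log2 fold change -2.34 ± 0.09, adjusted p = 9.63e-13), ISG15 (log2 fold change -2.44 ± 0.13, adjusted p = 5.87e-11), OAS1 and IFIT1 were still lower, and IFI6 was called as well (log2 fold change -0.63 ± 0.09, adjusted p = 3.21e-05), in a fit that called 41.1% of all genes in either direction. In this line time and set of library numbers cannot be told apart. Storage, which the study's methods describe for AMO1 cells, may also have gone with time.

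In AMO1 cells at 24 h, most members lay above the low level of the DMSO group with NCP26 and with HFG, and the mean with HFG was the higher of the pair for each of the 9. The 24 h comparisons all share the same 3 DMSO libraries, which are also the controls of the CFZ contrast that chose the set. IFIT2 was at 1.83, 1.65 and 0.601 CPM with DMSO, at 17.5, 18.9 and 18.8 with NCP26 and at 45.1, 58.8 and 47.4 with HFG. The ranges of the 3 groups did not overlap, and the change was called with NCP26 (log2 fold change 3.83 ± 0.29, adjusted p = 1.11e-12) and with HFG (5.28 ± 0.25, adjusted p = 2.15e-12). IFIT2 had 5, 7 and 3 counts with DMSO and passed the filter through the treated libraries alone, where a difference is built in. MX1 stood at 76.1, 66.9 and 79.8 CPM with NCP26 (log2 fold change 1.89 ± 0.11, adjusted p = 2.00e-15) and at 137, 131 and 132 CPM with HFG (2.73 ± 0.10, adjusted p = 5.65e-14), against 17.95 to 22.3 CPM with DMSO. The groups were ordered DMSO, NCP26 and HFG with clear gaps. ISG15, which tags newly made proteins, was at 10.9 ± 2.27 CPM with DMSO, 30.1 ± 5.49 with NCP26 (log2 fold change 1.45 ± 0.17, adjusted p = 1.22e-08) and 48.3 ± 3.89 with HFG (2.11 ± 0.15, adjusted p = 1.00e-09). IFIT3 rose with both compounds, from 2.44 ± 1.08 CPM to 12.1 ± 2.17 with NCP26 (2.39 ± 0.30, adjusted p = 3.40e-08) and 32.6 ± 0.808 with HFG (3.82 ± 0.23, adjusted p = 9.39e-11). With 10, 7 and 10 counts in DMSO, IFIT3 too passed the filter through the treated libraries alone.

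RSAD2 had 3, 0 and 0 counts in the AMO1 DMSO libraries at 24 h, 14, 19 and 22 with NCP26 and 9, 15 and 30 with HFG. Each treated library held more counts than any control library. For NCP26 this was 55 counts against 3, a ratio of 22.9 after scaling. For HFG it was 54 counts against 3, a ratio of 29.8 after scaling. These ratios rest on 3 control counts, and no interval is given for them. The 3 control libraries are those of the contrast that chose RSAD2. Its values against DMSO at 24 h are therefore a description, and no p-value is given for them. With 3 counts in the controls its fitted fold changes would also depend on the prior count. IFIT1 had 19, 10 and 9 counts with NCP26, where it did not pass the filter, and 20, 36 and 32 with HFG (log2 fold change 4.50 ± 0.40, adjusted p = 2.34e-08). With 1, 1 and 4 counts in DMSO, IFIT1 passed the filter through the HFG libraries alone. OAS1 and IFI6 were called with HFG and not with NCP26, a difference between compounds that was not itself tested. With HFG, OAS1 was at 21.4, 19.9 and 17.2 CPM against 11.01, 10.9 and 14.4 with DMSO (log2 fold change 0.64 ± 0.19, adjusted p = 0.00618), and IFI6 was at 102, 101 and 90.2 CPM against 37.1, 38.98 and 34.9 (1.40 ± 0.09, adjusted p = 3.80e-10). With NCP26 the estimates were smaller (OAS1 log2 fold change 0.14, 95% interval -0.24 to 0.52, and IFI6 0.16, 95% interval -0.06 to 0.37). IFI44L reached 23 counts over the NCP26 libraries and 20 over the HFG libraries against 6 with DMSO and was not tested.

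Counted over the family, 5 of 7 members tested rose with NCP26 at 24 h, against 29.8% of all genes tested, and 8 of 8 with HFG, against 28.5%. Of these, 3 with NCP26 (RSAD2, IFIT2 and IFIT3) and 4 with HFG (the same 3 and IFIT1) were under the count minimum in DMSO and passed the filter through the treated libraries alone, where a difference is built in. RSAD2 is in both counts although its control values entered the choice of the genes, and the counts without it are 4 of 6 and 7 of 7. Among members above the minimum in both groups, 2 of 4 were called with NCP26 and 4 of 4 with HFG. With NCP22, 0 of 4 members tested were called (0 at an unadjusted p under 0.05, and 0 by DESeq2), beside 0% of all genes (638 at an unadjusted p under 0.05, and 2 by DESeq2). With halofuginol, 0 of 5 were called (0 at an unadjusted p under 0.05, and 0 by DESeq2), beside 0.183% of all genes. MX1, at 20.6, 25.6 and 22.1 CPM with NCP22 and 21.6, 21.9 and 17.998 CPM with halofuginol, overlapped the DMSO range (log2 fold change 0.22, 95% interval -0.10 to 0.55 with NCP22, and 0.02, 95% interval -0.30 to 0.33 with halofuginol). These libraries carry the same set of numbers as those of NCP26 and HFG. Against DMSO at 24 h in AMO1 cells, these treatments and the set of library numbers cannot be told apart.

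**Figure D1:**
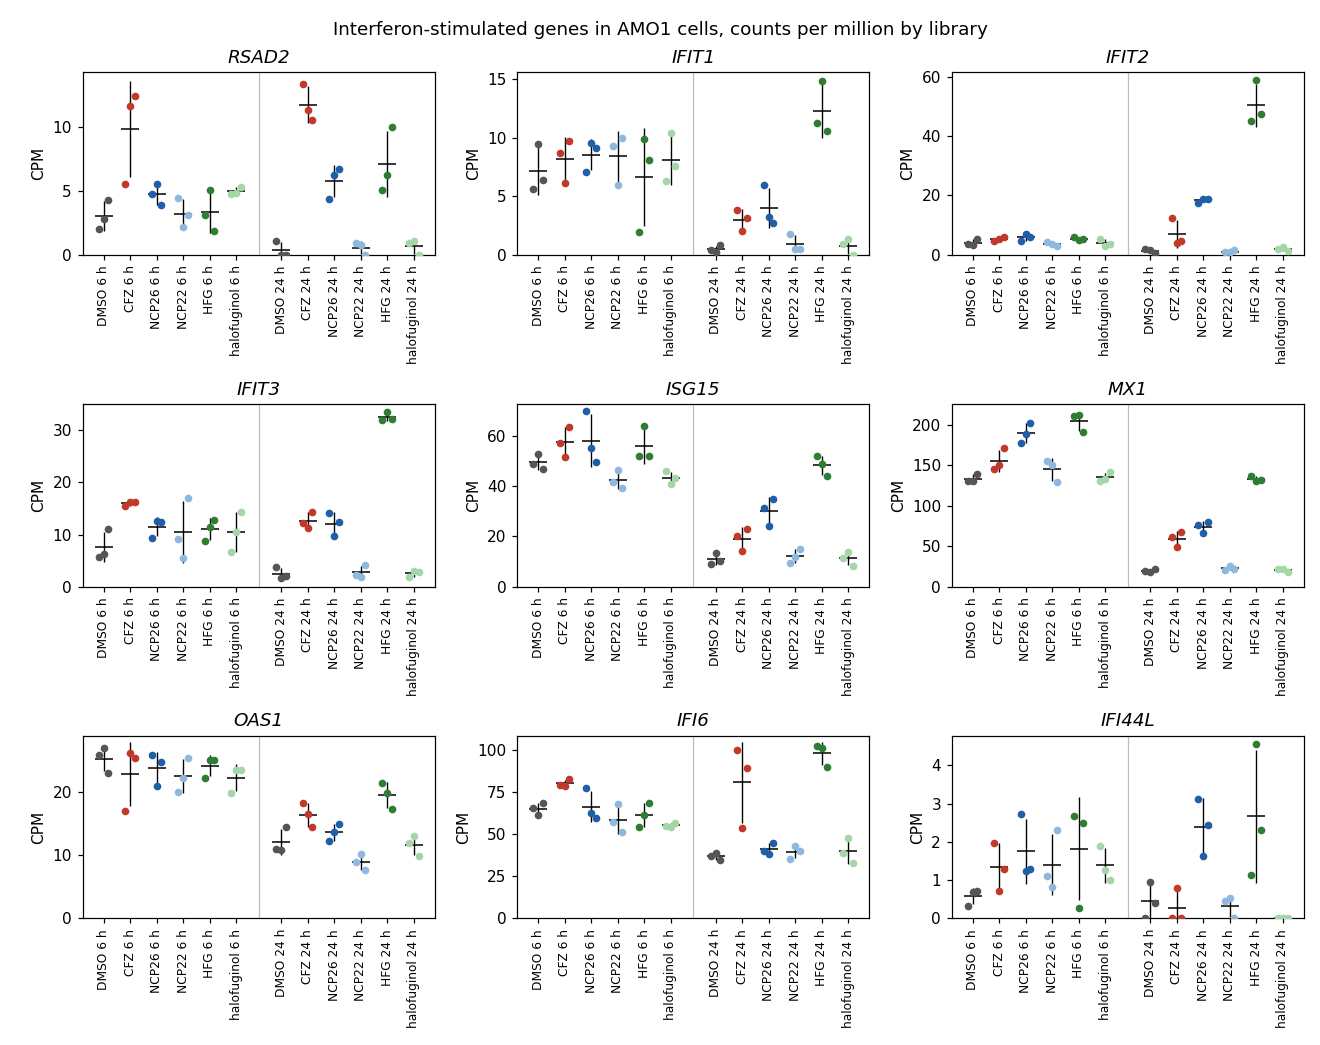
Level of each of the 9 members in the 36 AMO1 libraries, in CPM on linear axes that start at 0, by treatment and time. Points are libraries, and the horizontal mark and bar give the mean ± SD of 3. DMSO at 24 h lies below DMSO at 6 h for MX1 and ISG15, and the 24 h HFG libraries lie highest of the 24 h groups for IFIT1, IFIT2, IFIT3, ISG15 and MX1.

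At 6 h fewer members were called in AMO1 cells. CFZ raised RSAD2, which was at 5.53, 11.6 and 12.4 CPM against 1.98, 2.80 and 4.25 with DMSO, with all CFZ libraries above all DMSO libraries (log2 fold change 1.72 ± 0.35, adjusted p = 8.51e-04). IFIT3 rose as well, to 15.4, 16.3 and 16.3 CPM from 5.62, 6.30 and 10.99 (1.07 ± 0.24, adjusted p = 0.0016). IFI6 (0.30 ± 0.09, adjusted p = 0.0181) and MX1 (0.22 ± 0.08, adjusted p = 0.0487) rose slightly, and neither was called by DESeq2 or without CFZ replicate 3 or DMSO replicate 2. IFIT1 and IFIT2, neighbours of IFIT3, did not pass (IFIT1 0.20, 95% interval -0.38 to 0.78, and IFIT2 0.41, 95% interval -0.27 to 1.08). In all, 4 of 8 members tested were higher with CFZ at 6 h, against 14.1% of all genes, and RSAD2 was under the count minimum in DMSO and passed through the CFZ libraries. Without CFZ replicate 3 MX1 was at 0.15 (adjusted p = 0.290) and IFI6 at 0.27 (adjusted p = 0.0699). MX1 was also lost without any 1 of DMSO replicate 1 or CFZ replicates 1 and 2 (adjusted p between 0.0578 and 0.106). With NCP26 and with HFG, MX1 was the 1 member of 8 tested that was called, beside 18.1% of all genes higher with NCP26 and 27.7% with HFG. MX1 was at 178, 189 and 203 CPM with NCP26 (log2 fold change 0.52 ± 0.10, adjusted p = 0.00133) and at 211, 212 and 191 with HFG (0.65 ± 0.08, adjusted p = 4.82e-06), all above the 130.3 to 139.6 CPM of DMSO. RSAD2 was at 4.70, 5.56 and 3.90 CPM with NCP26 and 3.07, 5.08 and 1.88 with HFG, both overlapping DMSO. With NCP22 0 of 8 members were called (0 at an unadjusted p under 0.05, 0 by DESeq2), beside 13.5% of all genes, and with halofuginol 0 of 8 (1, IFI6, at an unadjusted p under 0.05, 0 by DESeq2), beside 3.62%. The 6 h comparisons share the same 3 DMSO libraries.

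Over all 22 groups, RSAD2 had its highest mean in AMO1 cells with CFZ. At 24 h the CFZ libraries held 38, 28 and 27 counts (13.3, 11.3 and 10.5 CPM) against 3, 0 and 0 with DMSO, which is the contrast that chose the set. The CFZ library of replicate 1, the only one in the same set of library numbers as the DMSO libraries, had the highest of the 3 values. Next came CFZ at 6 h (9.84 ± 3.75 CPM), HFG at 24 h (7.08 ± 2.55), NCP26 at 24 h (5.75 ± 1.21) and halofuginol at 6 h (4.95 ± 0.308). Every neighbouring pair of groups in this order overlapped in its libraries, so the ranks next to each other do not differ beyond their spread. The other members had other orders. With CFZ at 24 h, IFIT2 was at 12.3, 4.02 and 4.67 CPM, of which the first library lay far above the other 2, and its mean was 6.98 ± 4.58 against 50.4 ± 7.34 with HFG. IFIT3 was at 12.6 ± 1.60 CPM, MX1 at 59.3 ± 9.35, ISG15 at 18.999 ± 4.52, OAS1 at 16.4 ± 1.91 and IFI6 at 80.9 ± 24.04. IFIT1 had 11, 5 and 8 counts with CFZ at 24 h and IFI44L had 0, 2 and 0. Among the AMO1 groups at 24 h, the mean of IFIT2, IFIT3, ISG15 and MX1 was thus highest with HFG, while that of RSAD2 was highest with CFZ.

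The 2 pairs of related compounds were compared directly at 1 µM and at matched times, in 8 comparisons of 3 against 3 libraries. Halofuginol is the analogue of HFG in which the ketone is reduced to an alcohol. In AMO1 cells at 24 h, 8 of 8 members tested were higher with HFG than with halofuginol, against 27.9% of all genes, and 4 of the 8 (RSAD2, IFIT1, IFIT2 and IFIT3) were under the count minimum with halofuginol. These 4 passed the filter through the HFG libraries alone, where a difference is built in. The other members called were ISG15, MX1, OAS1 and IFI6. IFIT2 was at 45.1, 58.8 and 47.4 CPM with HFG and 1.76, 2.77 and 1.30 with halofuginol (log2 fold change 4.68 ± 0.24, adjusted p = 1.39e-11). For MX1 the values were 133 ± 3.59 and 20.5 ± 2.17 CPM (2.73 ± 0.10, adjusted p = 3.36e-13), and for IFI6 98.04 ± 6.81 and 39.9 ± 7.32 (1.31 ± 0.12, adjusted p = 4.44e-08). NCP26 against NCP22 gave 6 of 7 members higher at 24 h, against 26.3% of all genes. Of these, RSAD2, IFIT2 and IFIT3 were under the minimum with NCP22, where a difference is again built in. The other members called were ISG15, MX1 and OAS1. ISG15 was at 31.3, 24.1 and 34.9 CPM with NCP26 and 9.40, 11.7 and 14.9 with NCP22 (log2 fold change 1.35 ± 0.20, adjusted p = 5.88e-05). MX1 was also higher (1.69 ± 0.12, adjusted p = 7.39e-08). OAS1 was called (0.58 ± 0.20, adjusted p = 0.0285), but not by DESeq2 (adjusted p = 0.200) or without NCP26 replicate 2 or 3 or NCP22 replicate 1 or 3 (adjusted p between 0.0569 and 0.0975). IFI6 was the member that was not called (log2 fold change 0.06, 95% interval -0.18 to 0.30). All 4 groups of these 24 h comparisons share 1 set of library numbers.

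At 6 h fewer members were called between the pairs in AMO1 cells. With HFG against halofuginol 2 of 8 members were higher, against 25.6% of all genes, namely MX1 (log2 fold change 0.62 ± 0.06, adjusted p = 4.55e-07) and ISG15 (0.40 ± 0.10, adjusted p = 0.00411). The same 2 were higher with NCP26 than with NCP22 (MX1 0.42 ± 0.10, adjusted p = 0.0084, and ISG15 0.47 ± 0.13, adjusted p = 0.0216), against 12.6% of all genes, and both were lost without NCP22 replicate 3 (log2 fold change 0.32, adjusted p = 0.0587 for MX1, and 0.40, adjusted p = 0.107 for ISG15). ISG15 was also lost without NCP22 replicate 1 (0.46, adjusted p = 0.0799). RSAD2 was not called in either pair (log2 fold change -0.63, 95% interval -1.38 to 0.11 for HFG against halofuginol, and 0.58, 95% interval -0.15 to 1.31 for NCP26 against NCP22).

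In L363-CFZr cells at 24 h, MX1 was called with both compounds. MX1 was at 49.6, 50.8 and 53.4 CPM with DMSO, 107, 104 and 128 with NCP26 (log2 fold change 1.15 ± 0.13, adjusted p = 0.00385) and 111, 131 and 114 with HFG (1.21 ± 0.12, adjusted p = 0.00747). Both treated groups lay above all DMSO libraries and overlapped each other. ISG15 was at 23.96, 6.36 and 20.6 CPM with DMSO and 56.1, 49.2 and 57.03 with NCP26 (1.64 ± 0.37, adjusted p = 0.0395). OAS1 was called with NCP26 as well, at 17.7 ± 1.69 CPM against 9.13 ± 2.19 (0.94 ± 0.22, adjusted p = 0.0449). With HFG the levels were 52.9 ± 4.72 CPM for ISG15 and 16.2 ± 1.75 for OAS1, and neither passed (log2 fold change 1.60, 95% interval 0.73 to 2.47 for ISG15, and 0.80, 95% interval 0.28 to 1.32 for OAS1). That made 3 of 6 members higher with NCP26, against 2.71% of all genes, and 1 of 6 with HFG, against 0.592%. The NCP26 calls of ISG15 and OAS1 were lost without any 1 of the other 5 libraries of the comparison (adjusted p between 0.0574 and 0.164). The HFG call of MX1 was lost without DMSO replicate 1 or any 1 of the HFG libraries (adjusted p between 0.0505 and 0.0751). The MX1 call with NCP26 held throughout. With the replicate number as a block, adjusted p was 0.0671 for ISG15 and 0.114 for OAS1 with NCP26, and 0.0594 for MX1 with HFG. The DMSO library of replicate 2, which stood apart, had the lowest ISG15, OAS1 and IFI6 of its group. Without it, NCP26 raised 5 members (IFIT1, IFIT3, ISG15, MX1 and OAS1) and HFG 4 (ISG15, MX1, OAS1 and IFI6), with ISG15 at log2 fold change 1.28 ± 0.13, adjusted p = 2.27e-05 for NCP26 and log2 fold change 1.25 ± 0.13, adjusted p = 1.19e-07 for HFG. Called genes of either direction then made up 28.6% and 19.5% of those tested. IFIT2 had 0, 2 and 2 counts with DMSO, 4, 6 and 12 with NCP26 and 6, 3 and 7 with HFG and was not tested. RSAD2 had 4, 3 and 1 counts with NCP26 and 1, 0 and 1 with HFG, so that no rise was detectable at this depth.

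**Figure D2:**
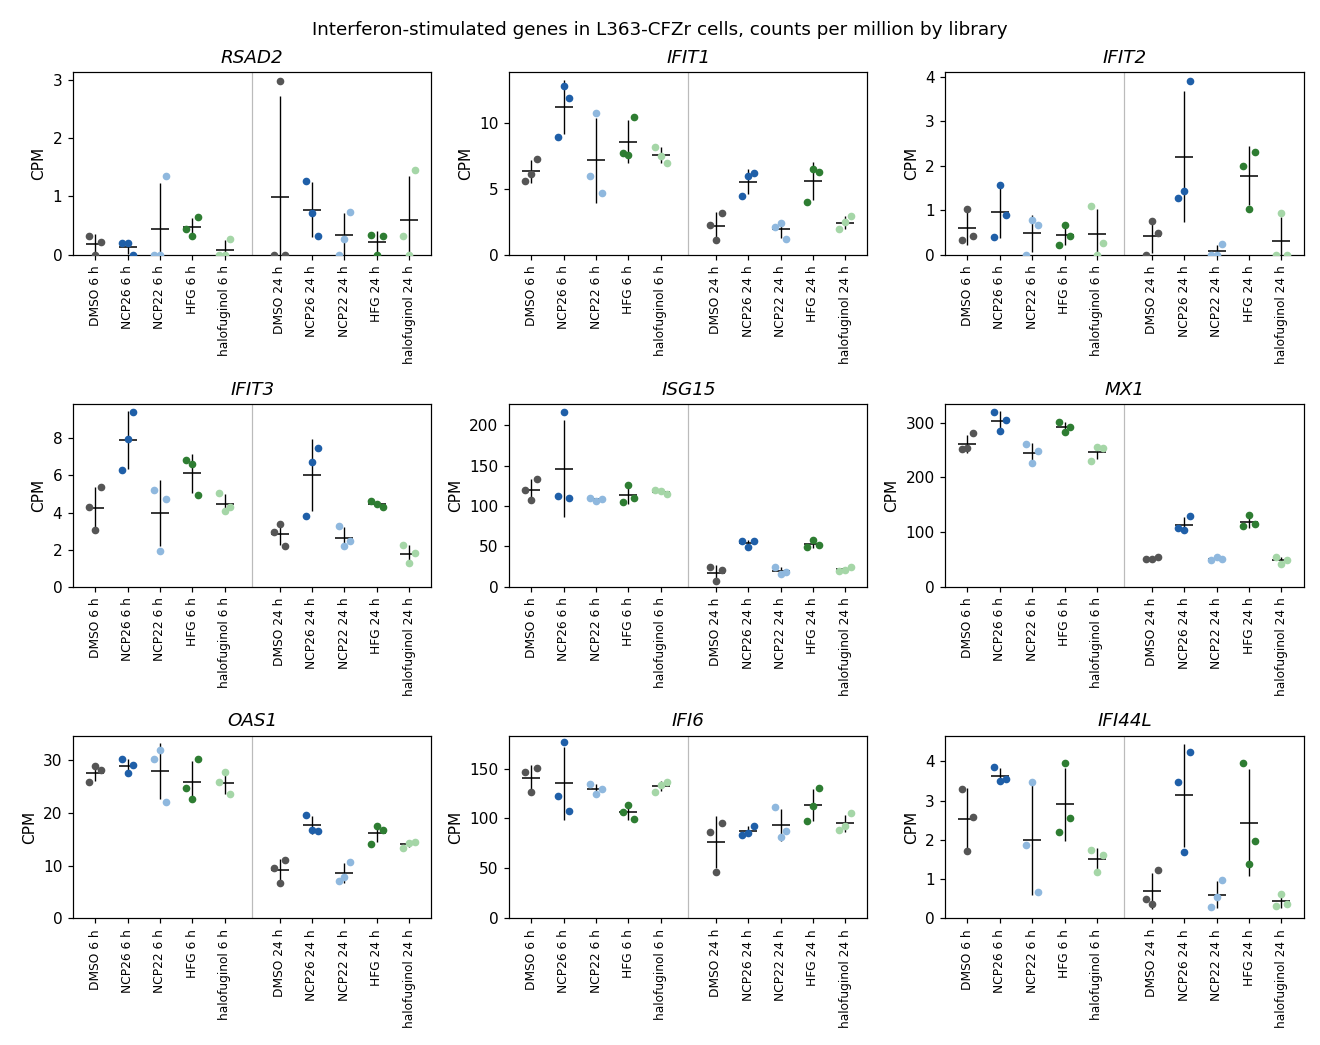
Level of each member in the 30 L363-CFZr libraries, in CPM on linear axes that start at 0, by treatment and time. Points are libraries, and the horizontal mark and bar give the mean ± SD of 3. RSAD2 stays at or below 2.99 CPM in every library, and MX1 at 24 h is above all DMSO libraries with NCP26 and HFG but not with NCP22 or halofuginol.

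The comparisons of analogues do not use the DMSO libraries. In L363-CFZr cells at 24 h, 4 of 6 members were higher with HFG than with halofuginol, against 9.59% of all genes, and 5 of 6 with NCP26 than with NCP22, against 16.2%. IFIT1 and IFIT3 were called in both pairs and were under the minimum with halofuginol and with NCP22. They passed the filter through the HFG or NCP26 libraries alone, where a difference is built in. The other members called were MX1 and ISG15 for HFG, and MX1, ISG15 and OAS1 for NCP26. By DESeq2 IFIT3 was lost in both pairs (adjusted p = 0.215 for HFG and 0.0929 for NCP26) and IFIT1 for HFG (0.207), and single libraries also ended these 3 calls (adjusted p between 0.0515 and 0.0932). MX1 and ISG15 held in every alternative. ISG15 was at 49.3, 58.2 and 51.1 CPM with HFG and 19.8, 20.3 and 23.7 with halofuginol (log2 fold change 1.31 ± 0.12, adjusted p = 1.28e-06), and at 56.1, 49.2 and 57.03 with NCP26 and 24.5, 15.2 and 17.7 with NCP22 (1.51 ± 0.15, adjusted p = 4.86e-06). OAS1 separated NCP26 from NCP22 (1.02 ± 0.19, adjusted p = 9.99e-04) but was not called between HFG and halofuginol (log2 fold change 0.19, 95% interval -0.18 to 0.57). Against DMSO, 0 of 5 members were called with NCP22 (0 at an unadjusted p under 0.05, 0 by DESeq2), beside 0% of all genes (213 at an unadjusted p under 0.05, 0 by DESeq2). With halofuginol it was 0 of 4 (1, OAS1, at an unadjusted p under 0.05, 0 by DESeq2), beside 0% of all genes (410 at an unadjusted p under 0.05, 0 by DESeq2). Adjusted over all genes of the 8 pair comparisons together, 31 of 57 member values were called in place of 29, the 2 added being IFIT3 and MX1 between NCP26 and NCP22 in L363-CFZr cells at 6 h.

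At 6 h in L363-CFZr cells, NCP26 raised IFIT1, at 8.93, 12.8 and 11.9 CPM against 5.59, 6.14 and 7.30 (log2 fold change 0.82 ± 0.22, adjusted p = 0.0267), and IFIT3 (0.88 ± 0.27, adjusted p = 0.0463), 2 of 7 members tested, against 9.81% of all genes. Neither was called by DESeq2 (adjusted p = 0.0988 for IFIT1 and 0.152 for IFIT3), with the replicate number as a block (0.054 and 0.0736), after a GC content offset (0.097 and 0.101), or without any 1 of the DMSO libraries or NCP26 replicate 3 (between 0.0672 and 0.143). IFIT3 was also lost without NCP26 replicate 1 (0.054). With HFG, MX1 was higher (0.19 ± 0.06, adjusted p = 0.0115) and IFI6 lower (-0.39 ± 0.08, adjusted p = 2.23e-04), beside 26.9% of all genes higher and 27.5% lower, and both were lost with a term for the set of library numbers (adjusted p = 0.561 for MX1 and 0.421 for IFI6). MX1 was lost as well without DMSO replicate 1 or HFG replicate 1 (0.0668 and 0.0669), and IFI6 after a GC content offset (log2 fold change -0.12, adjusted p = 0.160). The comparison of HFG with halofuginol lies within 1 set and gave the same directions. MX1 was at 301, 283 and 292 CPM with HFG and 230.4, 255 and 253 with halofuginol (log2 fold change 0.29 ± 0.05, adjusted p = 5.85e-06), and IFI6 at 106, 114 and 99.04 and 127, 134 and 137 (-0.29 ± 0.06, adjusted p = 1.86e-04, and lost with all groups in one fit, -0.32, adjusted p = 0.198), beside 23.1% of all genes higher and 24.2% lower. Between NCP26 and NCP22, 0 of 7 members were called by edgeR (4 at an unadjusted p under 0.05, 1 by DESeq2), beside 20.4% of all genes. With NCP22 against DMSO 0 of 6 were called (0 at an unadjusted p under 0.05, 0 by DESeq2), beside 0% of all genes (666 at an unadjusted p under 0.05, 1 by DESeq2), and with halofuginol 0 of 6 (0 and 0), beside 25.8%.

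Whether an effect depended on time or on the line was tested with an interaction term over 12 libraries at a time. In AMO1 cells the effect of HFG was larger at 24 h than at 6 h for 8 of 8 members, against 18.5% of all genes, and that of NCP26 for 6 of 8, against 7.36%. RSAD2 is in both counts, and its DMSO values at 24 h are those that entered the choice of the genes. IFIT1, IFIT2 and IFIT3 are in both counts too. Like RSAD2, they were under the count minimum in DMSO at 24 h and passed the filter through other groups. A difference is then built in. The other members called were ISG15, MX1, OAS1 and IFI6 with HFG, and ISG15 and MX1 with NCP26. For MX1 the log2 effect of HFG was larger at 24 h by 2.12 ± 0.12, adjusted p = 2.19e-10, and that of NCP26 by 1.37 ± 0.14, adjusted p = 3.50e-06. For IFIT2 the differences were 4.87 ± 0.46, adjusted p = 1.08e-07 with HFG and 3.24 ± 0.47, adjusted p = 1.11e-04 with NCP26. IFIT2 had 15 counts over the AMO1 DMSO libraries at 24 h, so these sizes rest on few control counts. The OAS1 difference with HFG (0.69 ± 0.21, adjusted p = 0.0141) was not called by DESeq2 (adjusted p = 0.0811). OAS1 (log2 difference 0.21, 95% interval -0.26 to 0.69) and IFI6 (0.12, 95% interval -0.21 to 0.45) were the members not called with NCP26. DMSO at 24 h, one of the 2 controls of each difference, was itself lower than DMSO at 6 h for the 6 members tested. Between the lines, 3 of 8 members had a smaller HFG effect in L363-CFZr at 24 h, against 8.82% of all genes. These were IFIT3 (-3.14 ± 0.39, adjusted p = 2.57e-04), IFIT1 (-3.24 ± 0.63, adjusted p = 0.00391) and MX1 (-1.54 ± 0.15, adjusted p = 3.96e-05). IFIT1 had 6 counts and IFIT3 27 over the AMO1 DMSO libraries at 24 h, so the sizes of their differences rest on few control counts. With NCP26 at 24 h the effect was smaller in L363-CFZr for 1 of 9, MX1 (-0.77 ± 0.17, adjusted p = 0.0225), against 2.44%, and with HFG at 6 h for 1 of 8, MX1 (-0.45 ± 0.09, adjusted p = 0.00155), against 9.34%. At 24 h the treated and DMSO libraries were in different sets of library numbers in AMO1 but in the same set in L363-CFZr. For HFG at 6 h it was the other way round. In these comparisons the line and the set cannot be told apart. The NCP26 difference of MX1 was lost without AMO1 DMSO replicate 1 or 2, AMO1 NCP26 replicate 1 or 3, or L363-CFZr NCP26 replicate 1 or 2 (adjusted p between 0.0591 and 0.0767). Without the L363-CFZr DMSO library that stood apart, the HFG difference was also called for IFI6 (-1.08 ± 0.14, adjusted p = 3.23e-06) and ISG15 (-0.86 ± 0.20, adjusted p = 0.00212), in a fit that called 33.4% of all genes in either direction. For NCP26 at 6 h, 0 of 9 were called (1, MX1, at an unadjusted p under 0.05, 0 by DESeq2), beside 2.71% of all genes. Those for RSAD2 rest on L363-CFZr counts between 0 and 8 and were not called.

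**Figure D3:**
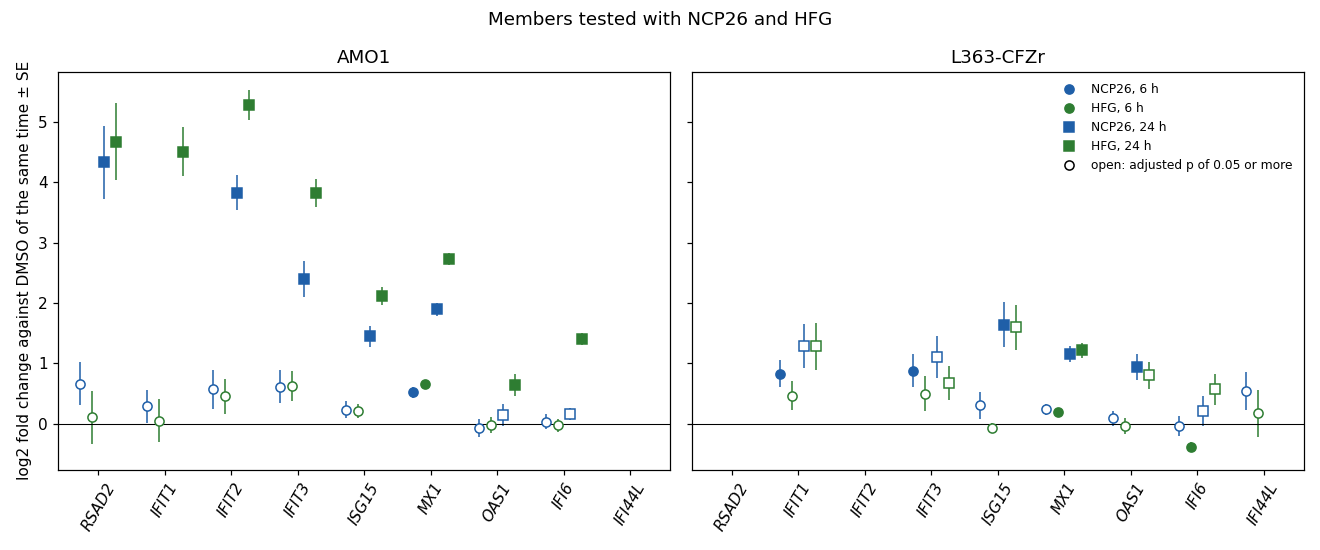
Log2 fold change of each tested member with NCP26 and HFG against DMSO of the same time and line, with its SE, in AMO1 (left) and L363-CFZr (right). Circles are 6 h, squares 24 h, open symbols did not pass an adjusted p of 0.05, and members that did not pass the filter are left out. In AMO1 the values of HFG at 24 h run from 0.64 for OAS1 to 5.28 for IFIT2, and those of RSAD2 at 24 h, with 3 counts in DMSO, depend on the prior count. The RSAD2 symbols at 24 h in AMO1 are a description, because these DMSO libraries entered the choice of the genes.

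The level of a member at 24 h can also be set beside the level in DMSO at 6 h, as a description. In AMO1 cells, DMSO at 24 h was at 0.148 of the 6 h level for MX1, 0.220 for ISG15 and 0.0655 for IFIT1. With HFG at 24 h MX1 was at 0.997 of that level and ISG15 at 0.974, close to the value in DMSO at 6 h. With NCP26 both lay lower, at 0.555 and 0.608. IFIT2 was different, at 4.57 times the 6 h level with NCP26 and 12.5 times with HFG, and IFIT3 was at 4.27 times with HFG. OAS1 remained under the 6 h level with both (ratios of 0.538 and 0.772), whereas RSAD2 was above it, at 1.91 and 2.35 times. In L363-CFZr cells MX1 was at 0.196 of the 6 h level with DMSO, 0.432 with NCP26 and 0.454 with HFG, so that it stayed under the 6 h level with each treatment. No test was run between a treated group at 24 h and DMSO at 6 h.

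**Figure D4:**
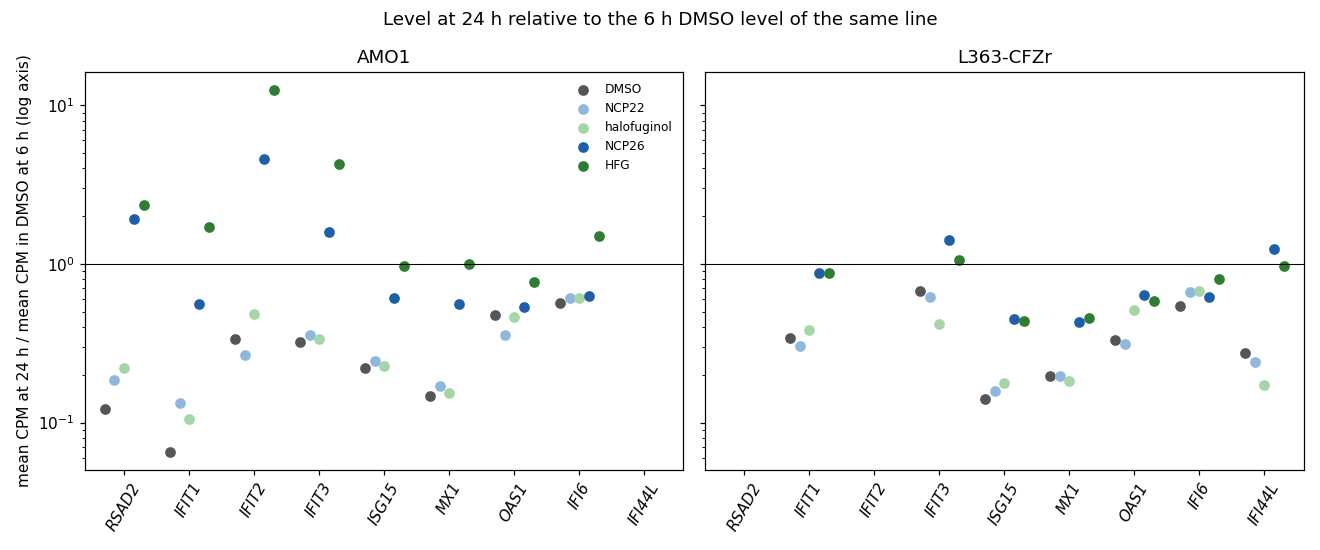
Mean CPM of each member at 24 h divided by its mean CPM in DMSO at 6 h of the same line, on a log axis, for AMO1 (left) and L363-CFZr (right). A value of 1 (line) is the untreated 6 h level, and members with under 10 counts over the 6 h DMSO libraries are left out. In AMO1 with HFG, MX1 and ISG15 lie at the line, OAS1 lies below it, and RSAD2, IFIT1, IFIT2, IFIT3 and IFI6 lie above it.

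Other interferon-stimulated genes, a list of 65 written from general knowledge of the pathway, were read from the same fits. With HFG in AMO1 cells at 24 h, 34 of 54 tested were higher and 12 lower (median log2 fold change 0.56, against -0.0019 over all genes tested, of which 28.5% were higher and 30.5% lower), and with NCP26 27 of 52 were higher and 12 lower (median 0.32, against 0.0075, with 29.8% and 30.9%). XAF1, a pro-apoptotic antagonist of XIAP, was the most changed by the naming rule in both, at 25.1 against 2.96 CPM, log2 fold change 3.09 ± 0.26, adjusted p = 9.79e-09 with HFG and 13.9 against 2.96 CPM, log2 fold change 2.22 ± 0.28, adjusted p = 3.92e-08 with NCP26. IFIT5, the fourth IFIT gene, also rose with both (2.34 ± 0.24, adjusted p = 1.82e-07 with HFG, and 1.43 ± 0.29, adjusted p = 7.91e-05 with NCP26). OASL, a relative of OAS1, was among the top 3 with HFG (2.84 ± 0.24, adjusted p = 8.10e-09) and HERC5, the ligase that attaches ISG15, with NCP26 (1.35 ± 0.26, adjusted p = 4.14e-05). In DMSO alone, 36 of 52 were lower at 24 h than at 6 h in AMO1 cells and 2 were higher, beside 23.4% and 23.1% of all genes. In L363-CFZr cells 21 of 50 were lower and 0 higher, beside 5.81% and 9%. For CFZ at 6 h 9 of 52 were higher and 2 lower, beside 14.1% and 12.8% of all genes, with GBP1 first (24.8 against 10.6 CPM, log2 fold change 1.22 ± 0.19, adjusted p = 3.79e-05). With NCP26 in AMO1 cells at 6 h, 16 of 53 were higher and 8 lower, beside 18.1% and 19.2% of all genes. With HFG it was 25 of 54 and 13, beside 27.7% and 26.6%. In L363-CFZr cells at 6 h, 18 of 53 were higher and 1 lower with NCP26, beside 9.81% and 8.99%. With HFG it was 25 of 51 and 9 there, beside 26.9% and 27.5%. In L363-CFZr cells at 24 h, 15 of 51 were higher with NCP26 (2.71% of all genes) and 2 of 50 with HFG (0.592%), IFIT5 (14.1 against 4.44 CPM, log2 fold change 1.61 ± 0.32, adjusted p = 0.0268) and XAF1 (20.8 against 9.80 CPM, log2 fold change 1.09 ± 0.19, adjusted p = 0.04996) first.

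The signalling genes above the members did not move as one. With HFG in AMO1 cells at 24 h, USP18, which removes ISG15 and damps the receptor, rose (11.7 against 2.49 CPM, log2 fold change 2.18 ± 0.28, adjusted p = 2.29e-06), as did the transcription factor IRF7 (51.2 against 19.1 CPM, log2 fold change 1.40 ± 0.12, adjusted p = 9.81e-09), the DNA-binding subunit IRF9 (0.58 ± 0.09, adjusted p = 3.26e-05) and the RNA sensor IFIH1 (1.00 ± 0.08, adjusted p = 5.54e-09). STAT2 and JAK1 were lower (-0.22 ± 0.08, adjusted p = 0.0154 for STAT2, and -0.47 ± 0.07, adjusted p = 9.14e-06 for JAK1). With NCP26, STAT2 was higher (0.45 ± 0.06, adjusted p = 4.28e-07). CFZ at 6 h raised IRF1, a factor that can drive these promoters on its own, from 51.96 ± 0.961 to 139 ± 3.67 CPM (log2 fold change 1.42 ± 0.09, adjusted p = 2.60e-11). At 24 h IRF1 was at 32.1 ± 4.22 CPM with CFZ and 66.6 ± 5.01 with DMSO, given without a test. Of 9 inhibitors of the pathway tested, 5 were lower and 1 higher with HFG at 24 h in AMO1 cells, the phosphatase PTPN6 among the lower ones (26.96 against 143 CPM, log2 fold change -2.41 ± 0.08, adjusted p = 3.99e-14), a gene named here after its values were seen. Of the 13 receptors, kinases and transcription factors, 2 were higher and 5 lower, and of 15 nucleic acid sensors and adaptors 4 were higher and 6 lower. These lists are read beside the 28.5% of all genes higher and 30.5% lower. The interferons themselves were hardly detected. Of 21 ligand genes, 20 never reached 10 counts in a library, and IFNB1 had 6 counts in all 66 libraries. IFNG, the type II interferon, reached 28 counts and was lower with NCP26 in AMO1 cells at 24 h (0.838 against 5.69 CPM, log2 fold change -2.65 ± 0.45, adjusted p = 6.99e-06). At that level IFNG was under the count minimum with NCP26 and passed the filter through the DMSO libraries alone, where a difference is built in. IFNG too was named after its values were seen, and counts of transcripts do not measure secreted interferon.

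Profiles over the 12 AMO1 groups were compared as Pearson correlations of group means of log2 CPM, with 1 added to each CPM. They are a description of 12 points that share controls and libraries. Among 11929 genes, the 5 with the profile most like RSAD2 were TSPAN17 (r = 0.944), KIF21A (0.926), SFXN5 (0.920), MKNK1 (0.919) and BAG2 (0.915), and no interferon-stimulated gene of the list was among them. The 9 members were left out of these rankings, and of them IFIT3 was closest to RSAD2 (r = 0.897). The RSAD2 profile holds the CFZ and DMSO values at 24 h that chose the set. The 5 most like the mean of the 9 members were XAF1 (r = 0.973), NUDT9 (0.971), NIPA2 (0.969), ADAR (0.965) and IFI44 (0.960), of which XAF1, ADAR and IFI44 are on the list. Within the set, MX1 and ISG15 ran closest together (r = 0.987 over the 12 AMO1 groups and 0.988 over the 10 L363-CFZr groups), while RSAD2 and MX1 had r = 0.703 in AMO1. IFIT2 was less close to MX1 (0.509) and ISG15 (0.523) there, and the loosest pair was IFIT2 and OAS1 (0.339).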

How the data were processed

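RNAseq libraries of AMO1 and L363-CFZr cells were read from one table of counts per gene that the authors deposited. According to the study's methods, reads were assigned to transcripts of GRCh38 with kallisto using 31-base words, while the submitters' processing notes list hg19. The sources used here give no kallisto version, annotation or strand setting, so reads of genes that overlap on the other strand cannot be told apart. Symbols and gene positions were matched by gene identifier to GENCODE v44 (19299 of 20167 genes). The members and gene lists were chosen with earlier results of these data known.

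Groups follow the sample labels. Levels are CPM after TMM scaling over 66 libraries. Differences were tested with edgeR 4.0.16 quasi-likelihood fits in R 4.3.3 on the libraries of the groups compared, after filterByExpr (minimum count 10, minimum total 15), with Benjamini-Hochberg adjustment over all genes tested and a threshold of 0.05. In all, 29 comparisons between groups and 6 differences of effects were tested, and the scripts were tested on simulated data. Errors are SE of log2 fold changes or SD of 3 libraries. Exact permutation of 3 against 3 libraries cannot give a p under 0.1. Library totals ran from 1666325 to 6596543 counts. No 2 libraries of a group were identical, and the variance between them was at least 1.29 times counting noise. Alternatives were DESeq2 size factors, the Wald test of DESeq2 1.42.0, no filter, all groups in one fit, the replicate number as a block, a GC content offset, a term for the set of library numbers and leaving out each library. After seeing the data, the fits without L363-CFZr DMSO replicate 2 of 24 h were tabulated on their own, and the first CFZ library of 24 h was read alone. Named list genes were the signalling core and, per comparison, at most 3 called genes of at least 5 CPM with no overlap between groups and the largest change.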

Additional observations from a re-analysis of the deposited data

Results flagged for a closer look

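A test of the difference between effects singled out the members that follow, and the values are log2 differences ± SE with edgeR adjusted p-values. In AMO1 cells the effect of HFG against DMSO was larger at 24 h than at 6 h for IFIT2 (4.87 ± 0.46, adjusted p = 1.08e-07), IFIT1 (4.50 ± 0.68, adjusted p = 3.29e-05), IFIT3 (3.23 ± 0.38, adjusted p = 2.16e-06), MX1 (2.12 ± 0.12, adjusted p = 2.19e-10), ISG15 (1.94 ± 0.19, adjusted p = 1.52e-07), IFI6 (1.46 ± 0.14, adjusted p = 1.10e-07) and OAS1 (0.69 ± 0.21, adjusted p = 0.0141). The effect of NCP26 was larger at 24 h for IFIT2 (3.24 ± 0.47, adjusted p = 1.11e-04), IFIT1 (2.60 ± 0.62, adjusted p = 0.0068), IFIT3 (1.77 ± 0.43, adjusted p = 0.00787), MX1 (1.37 ± 0.14, adjusted p = 3.50e-06) and ISG15 (1.21 ± 0.23, adjusted p = 0.00136). Over the AMO1 DMSO libraries at 24 h IFIT1 had 6 counts, IFIT2 15 and IFIT3 27. The sizes of their differences therefore rest on few control counts. IFIT1, IFIT2 and IFIT3 were under the count minimum there and passed the filter through other groups, where a difference is built in. For RSAD2 the fitted differences were 4.60 with HFG and 3.63 with NCP26. Its DMSO values at 24 h (3 counts) are those used to choose the genes, so these differences are a description, and their sizes depend on the prior count. The low DMSO level at 24 h, the storage of the samples and the set of library numbers moved with these differences, and their part was not tested.

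Between the lines, the effect of HFG at 24 h was smaller in L363-CFZr than in AMO1 for IFIT1 (-3.24 ± 0.63, adjusted p = 0.00391), IFIT3 (-3.14 ± 0.39, adjusted p = 2.57e-04) and MX1 (-1.54 ± 0.15, adjusted p = 3.96e-05). The sizes for IFIT1 and IFIT3 rest on the same few AMO1 DMSO counts. MX1 also differed with HFG at 6 h (-0.45 ± 0.09, adjusted p = 0.00155) and with NCP26 at 24 h (-0.77 ± 0.17, adjusted p = 0.0225). In each of these comparisons, treated and DMSO libraries were in different sets of library numbers in only one of the lines. Line and set cannot be told apart here. Groups of 3 libraries are too small for a test of single outlying libraries.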

How the results depend on the processing

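Of 91 member values called, 91 held with DESeq2 size factors, 90 with no filter, 88 with a GC content offset, 86 with all groups in one fit, 85 with a replicate block, 81 by the DESeq2 Wald test and 15 of 17 with a set term. None of them reversed. The 91 include RSAD2 calls that rest on the AMO1 DMSO libraries at 24 h, which entered the choice of the genes. ISG15 with HFG in L363-CFZr cells at 6 h, not called at -0.07, reversed to 0.29 (adjusted p = 0.00145) with the GC content offset. Counts of called members moved by over 1.5 times in 3 families. For L363-CFZr at 6 h, 4 became 2 by DESeq2, with all groups in one fit, with the replicate block, with the GC content offset and with the set term. For L363-CFZr at 24 h, 4 became 12 with all groups in one fit and 1 with the replicate block. Between the lines in DMSO, 6 became 10 with no filter and 11 with all groups in one fit. The cause was not tested.

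Leaving out each library in turn gave 4 to 8 calls for AMO1 at 6 h (6 with all libraries), 13 to 14 for AMO1 at 24 h (13), 1 to 6 for L363-CFZr at 6 h (4), 1 to 9 for L363-CFZr at 24 h (4), 7 to 11 for DMSO over time (10), 5 to 7 between the lines (6), 27 to 31 for the compound pairs (29) and 18 to 21 for differences of effects (19). The lowest for L363-CFZr came without DMSO replicate 1 at each time, and the highest without NCP26 replicate 2 at 6 h and DMSO replicate 2 at 24 h. RSAD2, whose control values entered the choice of the genes, is counted for AMO1 at 24 h and for differences of effects. A pairing of samples by replicate number was not seen: in 0 of 29 comparisons was every correlation of same-numbered deviations above 0.1 (range -0.32 to 0.27). This check cannot exclude that a number shares a culture or preparation, which the labels do not say.

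Counts over all genes moved more. With NCP26 in L363-CFZr cells at 24 h, 757 genes were called, 2918 with all groups in one fit and 156 with the replicate block, and with HFG 122, 1918 and 20. With halofuginol in L363-CFZr cells at 6 h, 2718 became 356 with the GC content offset and 81 with the set term. With NCP26 in AMO1 cells at 24 h, 6547 became 2897 with the set term, and with HFG 6328 became 3601. With NCP22 in AMO1 cells at 6 h, 1443 became 616 with the GC content offset. In AMO1 cells the set term rests on the 24 h CFZ libraries alone, 1 against 2, which were used to choose the genes, so a call that held with it is no independent support. The set term was run only against DMSO, for AMO1 cells at 24 h and L363-CFZr cells at 6 h. It was not run for differences of effects. Nor was it run between NCP26 and NCP22 in L363-CFZr cells at 6 h, where NCP22 replicate 3 was in another set. In the other comparisons left out, the libraries share 1 set or the sets follow the groups. With 1 more A in the response element, 87.5% of members matched, 66% of other interferon-stimulated genes and 4.38% of all genes. At this depth RSAD2 and IFIT2 were at or near 0 in L363-CFZr cells, which limits any comparison of them between the lines.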
